A study of Mus musculus with 18 samples.

Results

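The endothelial and blood-brain barrier genes described here are Cldn5, Vwf, Sox18, Pecam1, Cdh5, Flt1, Tek, Abcb1a, Mfsd2a and Ocln. They were taken by gene symbol from the deposited tables of a mouse cortex RNA-seq series. All 10 were listed with a value in each of the 18 libraries, as were 13029 genes in all. All 10 also passed the filter on low values, a mean of at least 0.5 FPKM, so no member was lost. FPKM counts fragments per kilobase of transcript, scaled to the library size, and is the unit in which the authors deposited the values.

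The study compared cortex after spreading depolarization (SD), a wave that travels slowly over the cortex and depolarizes its cells, with the opposite hemisphere and with sham. The mice were healthy C57BL/6 females aged 7 to 8 weeks. Wild-type (WT) mice were given KCl in the KCl system, where NaCl was the sham treatment. In the optogenetic system the mice were heterozygous for Thy1-ChR2-YFP, sham mice included. This transgene places a light-gated channel under the Thy1 promoter, which drives it in neurons. Light of 2 mW was given for 20 s per stimulus. Stimulated mice of both systems had 4 SDs within 2 h, at 30 min intervals. Each system had 3 libraries of the left cortex, the SD side, 3 of the right cortex of the same mice, the contralateral side, and 3 of sham mice. The labels do not say how long after the last SD the tissue was taken, nor which hemisphere came from sham mice. The stimulus was given on the SD side in every stimulated mouse, so stimulus, SD and left side cannot be told apart. The systems differ in genotype and stimulus, and their tables were made separately. In a difference between the systems these cannot be told apart either.

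Endothelial cells line the vessels, and in the brain they form a barrier between blood and tissue. They do so by sealing the gaps between cells with tight junctions, by keeping transport in vesicles low, and by pumping drugs and other compounds back into the blood. Their identity is held by ETS and SOX family transcription factors, and their growth and rest are set by receptors for VEGF and angiopoietins.

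The values below are levels in FPKM, which correct for transcript length and so can be set side by side between genes. The tables of the systems were made separately, and the order of levels rests on all 18 libraries. Cldn5, the main claudin of brain endothelial tight junctions, had the highest mean level, 13.4 FPKM. Abcb1a, an efflux pump of the P-glycoprotein type, followed with 8.31, Mfsd2a, a lipid transporter that holds vesicle transport down, with 7.30, and Flt1, a VEGF receptor, with 6.55. Cdh5, the cadherin of endothelial adherens junctions, stood at 4.09, Tek, the angiopoietin receptor TIE2, at 3.37, and Pecam1, an adhesion molecule of endothelial contacts, at 2.86. Ocln, a tight junction protein of endothelium and epithelia, was at 1.80. Vwf, the von Willebrand factor that captures platelets, and Sox18, a SOX transcription factor of endothelium, were lowest, with 0.839 and 0.822 FPKM. The ranges over libraries overlapped between neighbours in this order except between Pecam1 and Ocln and between Ocln and Vwf. Sox18 and Vwf lay near the low-value filter, and 6.36% and 6.61% of listed genes had a lower mean. Read counts were not part of the tables used, so the counting error behind these low values is unknown.

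The members differed in how much the libraries of a group scattered. Abcb1a had a median coefficient of variation within groups of 6.52%, and Pecam1 of 7.58%. Sox18 had one of 36.0%, and Cldn5 one of 21.8%.

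**Figure D1:**
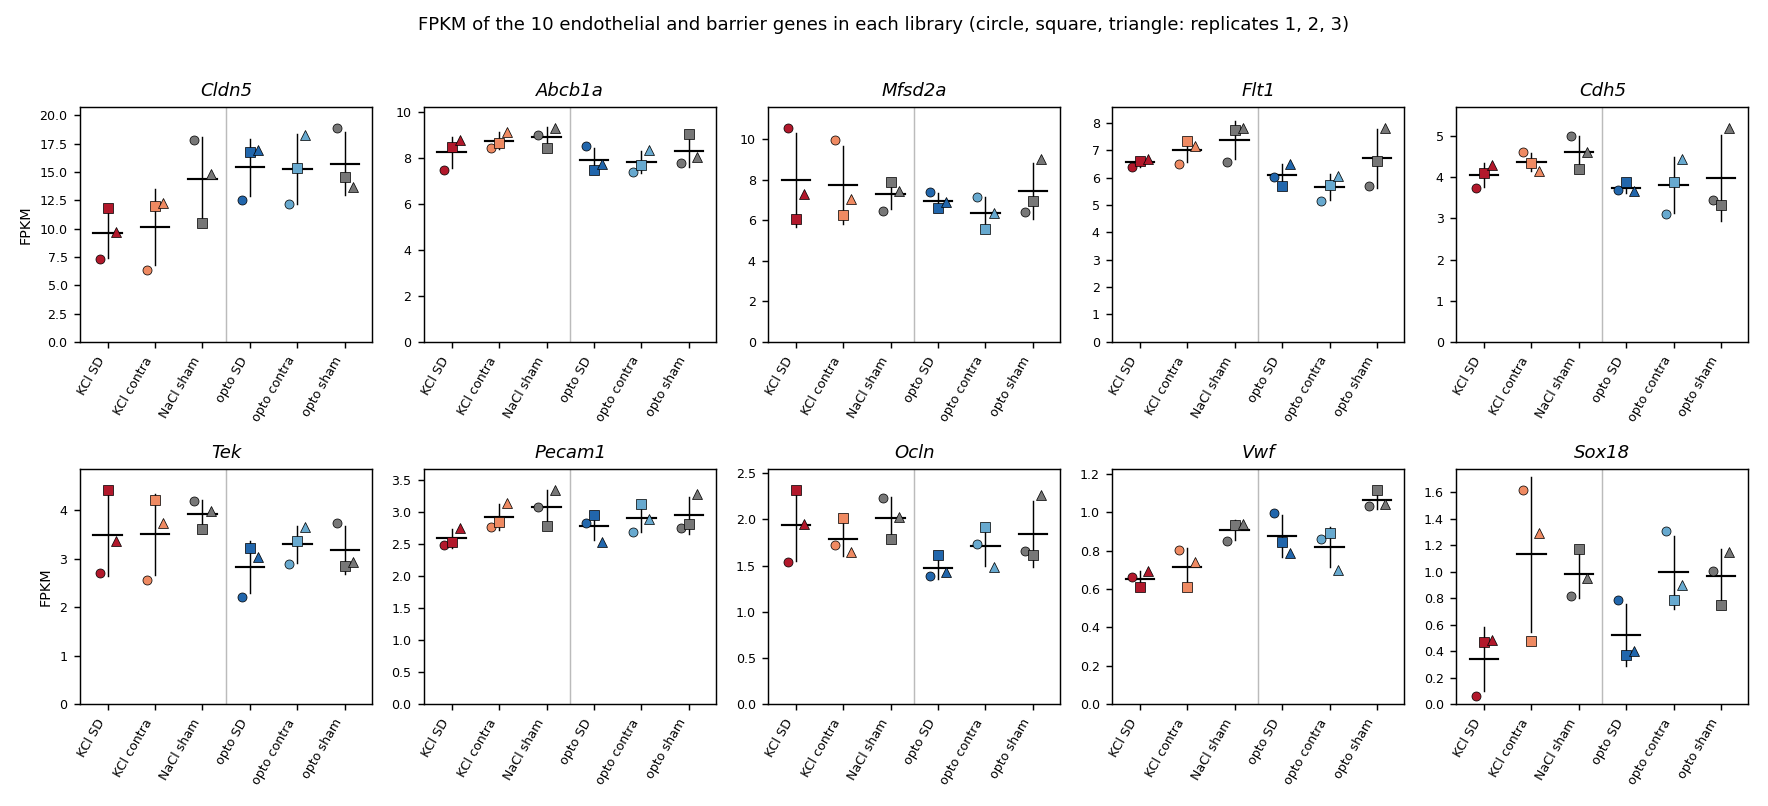
FPKM (y axis, from 0) of each gene in every library, by group (x axis), with KCl groups left and optogenetic groups right of the grey line. Symbols are single libraries, the horizontal bar is the mean of 3 and the vertical bar the standard deviation. Every Vwf library of a stimulated mouse lies below every sham library of its system, and the lowest Sox18 value, 0.0614 FPKM, is an SD library of the KCl system.

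The first question was whether SD moved these genes relative to sham. No member was called in the KCl system, in the optogenetic system or in the mean of both effects. Calls rested on limma with Benjamini-Hochberg adjustment over all genes, at an adjusted p under 0.05. The same threshold called 0.0694% of genes for KCl SD against sham, 0.477% for optogenetic SD against sham and 0.967% for the mean of both systems. In the mean of both systems 9 of 10 members had a log2 fold change below 0, as did 61.6% of all genes. The median was -0.14 on the log2 scale over the members and -0.02 over all genes. Of the members, 3 were lower at an unadjusted p under 0.05, namely Vwf, Sox18 and Pecam1, as were 7.63% of all genes. Within the systems these were the same 3 with KCl, beside 5.49% of genes, and Sox18 alone with light, beside 5.01%. The members were chosen with earlier results of these data known, so these shares do not test them against all genes. In cortex tissue, fewer endothelial cells and less RNA per endothelial cell cannot be told apart. Fold changes here are on the scale of log2(FPKM + 0.5), which understates the change of genes as low as Sox18 and Vwf.

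**Figure D2:**
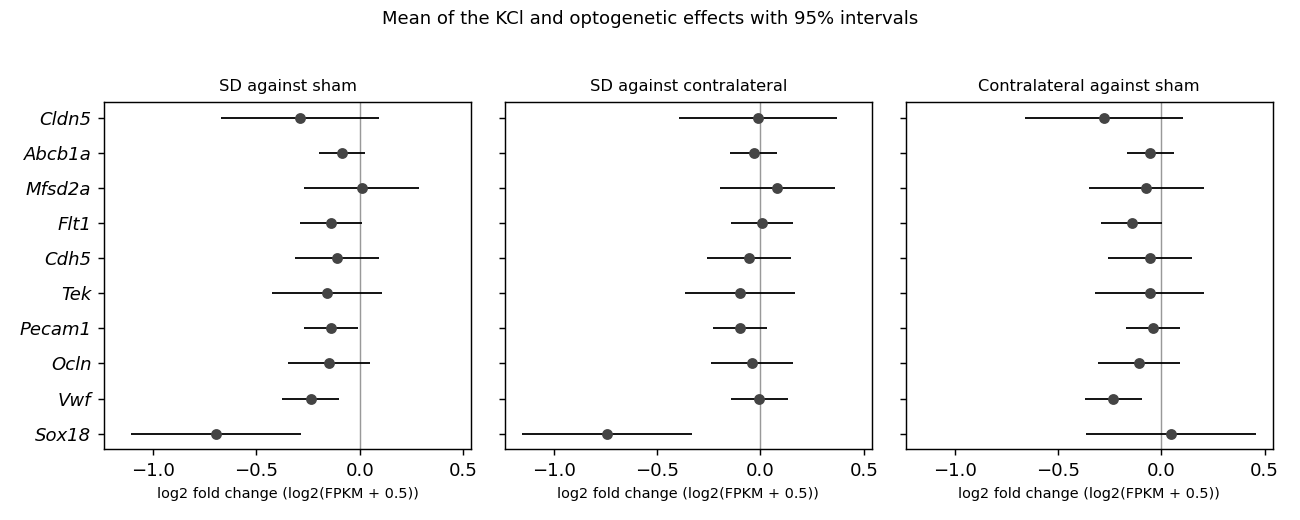
Log2 fold change of each gene (x axis, log2(FPKM + 0.5)) as the mean of the KCl and the optogenetic effect, in 3 panels for the 3 comparisons. Points are estimates from limma and lines their 95% intervals, not adjusted for the number of genes. Sox18 lies at -0.70 against sham and at -0.74 against the contralateral side, and Vwf at -0.24 and -0.23 in the panels against sham.

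Sox18 (ENSMUSG00000046470.5) lies on chromosome 2, 181669836 to 181671640, minus strand, build GRCm38, and its transcript in the GENCODE M21 annotation has 2 exons and 1620 bases. In the KCl system it stood at 0.0614, 0.471 and 0.485 FPKM on the SD side. The contralateral side of the same mice had 1.61, 0.479 and 1.30, and NaCl sham 0.815, 1.17 and 0.954. All 3 SD libraries lay below all 3 sham libraries, while the contralateral library of mouse 2 was as low as the SD side. In the optogenetic system the SD side had 0.788, 0.373 and 0.401 FPKM, the contralateral side 1.31, 0.785 and 0.895, and sham 1.01, 0.749 and 1.15. The first SD library overlapped both other groups, and the other two lay below them.

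Within mice, Sox18 was lower on the SD side in 6 of 6. The differences were -1.91, -0.01 and -0.87 in the KCl mice and -0.49, -0.56 and -0.63 in the optogenetic mice, on the log2 scale. Of 12930 genes, 6.76% were lower and 3.34% higher on the SD side in every mouse. In limma the log2 fold change against the contralateral side was -0.93 (SE 0.31, adjusted p = 0.389) in the KCl system. It was -0.56 (SE 0.19, adjusted p = 0.434) in the optogenetic system. The mean of both was -0.74 (SE 0.19, adjusted p = 0.0716), where 1.73% of genes were called. Against sham the mean was -0.70 (SE 0.19, adjusted p = 0.127), with -0.86 in the KCl and -0.54 in the optogenetic system. None of these passed the threshold.

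The contralateral side had a Sox18 level near sham, with a mean difference of 0.05 and a 95% interval of -0.36 to 0.46. The KCl effect less the optogenetic effect was -0.37 (SE 0.39, adjusted p = 0.939) against the contralateral side and -0.32 (SE 0.39, adjusted p = 0.939) against sham. Sox18 against the contralateral side depended on single libraries. Without the contralateral library of KCl mouse 2 the mean was -0.91 and passed the threshold (adjusted p = 0.0101 in limma). With both sides of KCl mouse 1 left out it was -0.50 (adjusted p = 0.281). The direction was the same in all of these fits.

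**Figure D3:**
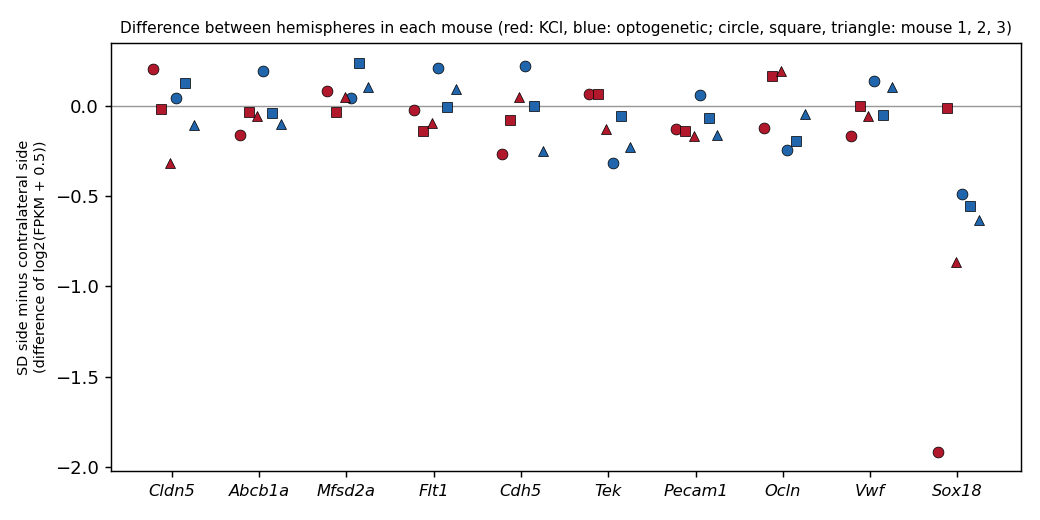
SD side less contralateral side (y axis, difference of log2(FPKM + 0.5)) for each gene (x axis) in each of the 6 stimulated mice, KCl in red and optogenetic in blue. All 6 Sox18 points lie below 0, from -0.01 to -1.91, while the points of the other genes lie between -0.32 and 0.24.

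Vwf (ENSMUSG00000001930.17, chromosome 6, 125546774 to 125686679, plus strand) showed another pattern, a lower level on both sides of the stimulated mice. In the KCl system the SD side had 0.661, 0.611 and 0.692 FPKM, the contralateral side 0.803, 0.611 and 0.739, and NaCl sham 0.850, 0.934 and 0.939. In the optogenetic system the SD side had 0.998, 0.844 and 0.786, the contralateral side 0.860, 0.893 and 0.698, and sham 1.04, 1.12 and 1.04. Each stimulated library was thus below every sham library of its system, on either side. Of 12930 genes, 6 had this arrangement in both systems (0.0464%), and 3 had the opposite one (0.0232%). The other 5 were Foxred2, Mpst, Npdc1, Phc3 and Zfp105. The arrangement of Vwf was found after its values were seen, and both sides come from the same mice and are set against the same sham libraries.

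The mean log2 fold change of Vwf was -0.24 (SE 0.06, adjusted p = 0.122) for SD against sham. For the contralateral side against sham it was -0.23 (SE 0.06, adjusted p = 0.915), in a comparison where 0.0155% of genes were called. Neither passed limma's threshold over all genes. By system, SD against sham gave -0.29 (SE 0.10) with KCl and -0.19 (SE 0.10) with light. The contralateral side against sham gave -0.21 (SE 0.10) and -0.25 (SE 0.10). The sides of the stimulated mice differed by -0.01 in the mean, with a 95% interval of -0.14 to 0.13.

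Among junction and adhesion genes, Pecam1 (chromosome 11, 106654217 to 106750628, minus strand) had the next lowest p. Its KCl SD libraries held 2.48, 2.53 and 2.75 FPKM, its contralateral libraries 2.76, 2.84 and 3.14 and its sham libraries 3.08, 2.79 and 3.34. The SD side was below every other KCl library, by a small margin. Optogenetic Pecam1 levels overlapped between all groups, from 2.53 to 3.27 FPKM. The mean effect against sham was -0.14 (SE 0.06, adjusted p = 0.400 in limma). The intervals of the other junction genes included 0: Cdh5 was at -0.11 (95% interval -0.31 to 0.10) and Ocln at -0.15 (-0.35 to 0.05). Without the SD library of KCl mouse 1, or without optogenetic sham replicate 3, Ocln was at -0.09. Ocln lay below sham in the optogenetic system by a narrow margin, with the highest SD library at 1.617 FPKM and the lowest sham library at 1.619. An antisense gene, Gm29682, overlaps Cdh5 in the annotation, and it is not stated whether the counting used strand.

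No member was called for SD against the contralateral side either, where 0.347% of genes were called with KCl and 0.531% with light. At an unadjusted p under 0.05 Sox18 alone was lower, beside 6.02% and 5.42% of genes, and beside 8.57% in the mean of both systems. The contralateral side against sham gave 0 called members, beside 0.00771% of genes with KCl and 0.00769% with light. There 0 members were lower at an unadjusted p under 0.05 with KCl, beside 3.19% of genes. Vwf was the 1 member that was lower with light, beside 2.42%, and in the mean of both systems, beside 2.33%. The difference between the systems called no member, and at most 1 gene of 12930 (0.00773%, for the contralateral side against sham).

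Counted over members, 3 of 10 lay below sham without overlap in the KCl system (Vwf, Sox18 and Pecam1), as did 8.54% of genes. In the optogenetic system 2 of 10 did (Vwf and Ocln), as did 8.51% of genes. Against the contralateral side 1 of 10 did with KCl (Pecam1), beside 11% of genes, and 0 of 10 with light, beside 9.67%. For the contralateral side against sham only Vwf did among the members, in each system, beside 5.87% and 4.33% of genes. No member lay above without overlap in any of the 6 comparisons. For SD against sham 4.42% of genes did with KCl and 6.04% with light. The shares were 6.28% and 5.26% against the contralateral side, and 4.87% and 6.58% for the contralateral side against sham. These counts are no test of the members against all genes either, given how the members were chosen.

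The receptors and transporters gave smaller values. Against sham, Flt1 was at -0.14 (95% interval -0.29 to 0.01), Tek at -0.16 (-0.42 to 0.11), Abcb1a at -0.09 (-0.20 to 0.03) and Mfsd2a at 0.01 (-0.27 to 0.29), each as the mean of both systems. The Flt1 value was of the same size on the contralateral side, -0.14. These values leaned on single libraries. Over the libraries left out Tek ran from -0.24 without the SD library of KCl mouse 2 to -0.08 without that of KCl mouse 1. Flt1 ran from -0.19 to -0.08, the latter without optogenetic sham replicate 3, and Abcb1a from -0.11 to -0.05, the latter without the SD library of KCl mouse 1. No sign changed in these 3 genes. Genes Gm42684 and Gm42686 overlap Abcb1a in the annotation.

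The Cldn5 estimates differed between the systems, but the difference did not pass the test given below. In the KCl system it had 7.32, 11.8 and 9.72 FPKM on the SD side, 6.31, 11.96 and 12.2 on the contralateral side, and 17.8, 10.5 and 14.8 in sham. Both sides of the stimulated KCl mice were lower in the mean, but sham replicate 2 lay within their range. In the optogenetic system SD libraries held 12.5 to 16.95 FPKM, contralateral libraries 12.1 to 18.3 and sham libraries 13.7 to 18.9, with full overlap. The log2 fold change against sham was -0.55 (SE 0.28, adjusted p = 0.682) with KCl and -0.03 (SE 0.18, adjusted p = 0.975) with light. Over the libraries left out the KCl value ran from -0.75 to -0.38. The difference between the systems, -0.52 (95% interval -1.29 to 0.24), did not pass limma's test (adjusted p = 0.897). The interval still holds a difference of either direction.

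KCl mouse 1 stood apart on both sides in 3 members. Its Cldn5 levels, 7.32 and 6.31 FPKM, were the lowest of the 18 libraries, and its Tek levels, 2.70 and 2.56, the lowest of the KCl system. Its Mfsd2a levels, 10.6 and 9.94, were the highest of all. The other KCl libraries had 3.37 to 4.41 FPKM of Tek and 6.08 to 7.89 of Mfsd2a. Optogenetic sham replicate 3 was the highest of its system in Cdh5 (5.20), Flt1 (7.80), Ocln (2.26) and Mfsd2a (9.01). Summed over 5 red blood cell markers it had 1031 FPKM, against 414 and 460 in the other sham libraries. Without it the mean effect of SD against sham on Cdh5 went from -0.11 to -0.02.

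These libraries belonged to a wider pattern of covariation. Values were taken as log2(FPKM + 0.5) less the mean of the system, and the correlations describe 18 libraries that share mice and groups. Cldn5 and Tek followed each other (Pearson r 0.85 over all, 0.89 with KCl and 0.82 with light). Mfsd2a ran against both, with r -0.72 to Cldn5 and -0.80 to Tek. Without KCl mouse 1 these became 0.69, -0.41 and -0.60 over 16 libraries. Over the 45 pairs of members the median r was 0.26, with 6 pairs above 0.5 and 7 below 0. Pecam1 and Cdh5 stood at 0.64, and Sox18 and Vwf at 0.50.

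**Figure D4:**
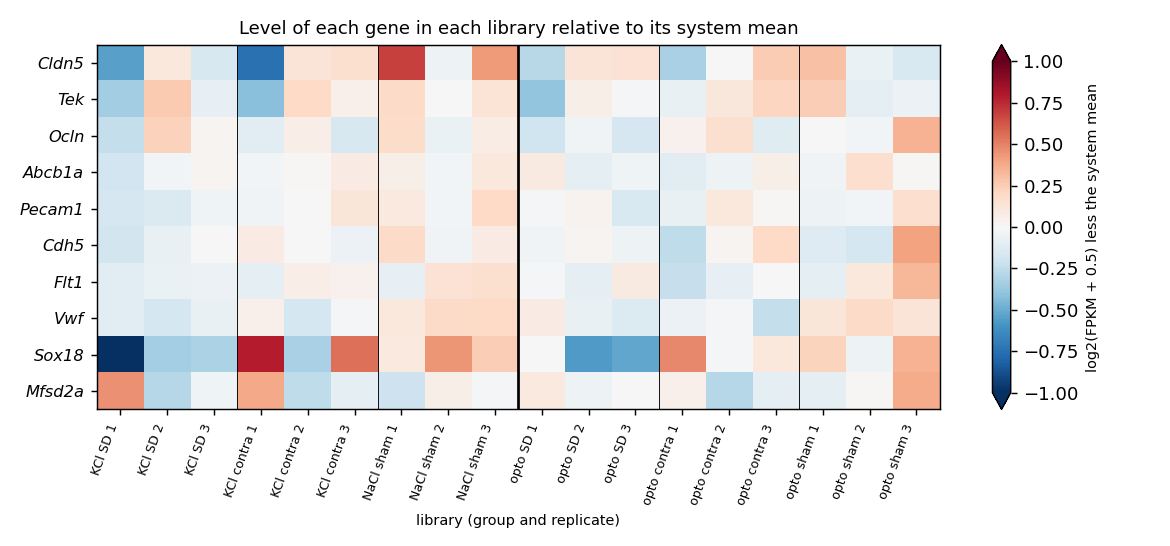
Level of each gene (rows) in each library (columns) as log2(FPKM + 0.5) less its mean in its system, with the colour scale ending at -1 and 1. Thick and thin lines separate the systems and the groups. The columns of KCl mouse 1 are blue in Cldn5 and Tek and red in Mfsd2a on both sides, and the Sox18 row is blue in 5 of 6 SD columns.

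The promoters of these 3 covarying genes are printed because their levels moved together or in opposition across libraries. Each line gives the 250 bases before the RefSeq start (GRCm38.p6), 5′ to 3′ on the gene's strand. Capitals mark the ETS core GGAA, or TTCC on the other strand, the letters bound by the ETS factors that hold endothelial identity.
Cldn5, chr16:18776597-18776846, plus strand: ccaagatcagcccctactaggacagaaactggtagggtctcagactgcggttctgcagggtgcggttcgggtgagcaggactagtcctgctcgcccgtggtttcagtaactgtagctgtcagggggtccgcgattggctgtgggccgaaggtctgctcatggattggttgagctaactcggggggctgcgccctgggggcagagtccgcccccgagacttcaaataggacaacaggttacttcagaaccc
Tek, chr4:94739039-94739288, plus strand: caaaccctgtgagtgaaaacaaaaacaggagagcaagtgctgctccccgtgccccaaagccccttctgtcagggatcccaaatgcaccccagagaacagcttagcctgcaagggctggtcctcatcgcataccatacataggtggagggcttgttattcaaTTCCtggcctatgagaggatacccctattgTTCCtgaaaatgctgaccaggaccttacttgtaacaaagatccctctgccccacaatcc
Mfsd2a, chr4:122961189-122961438, minus strand: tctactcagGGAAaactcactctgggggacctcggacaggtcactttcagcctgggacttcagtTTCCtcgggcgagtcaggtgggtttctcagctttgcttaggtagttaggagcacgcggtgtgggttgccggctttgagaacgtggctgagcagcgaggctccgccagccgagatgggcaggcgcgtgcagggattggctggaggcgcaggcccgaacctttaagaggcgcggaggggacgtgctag
The Cldn5 window held 0 matches, and those of Tek and Mfsd2a held 2 each. Of 32851 RefSeq promoter windows of this length, 93.4% held at least 1 match, so the letters are common. The SOX letters ACAAT, read on both strands, stood 2 times before Tek and 0 times before Cldn5 and Mfsd2a, beside 27.7% of all windows with at least 1. RefSeq promoter windows were at hand for 6 of the 10 members, namely Cldn5, Flt1, Tek, Abcb1a, Mfsd2a and Ocln.

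The 6 other genes whose levels followed the mean of the members most closely over the 18 libraries were Slc16a1 (r 0.87), Prrt1 (0.86), Abhd8 (0.83), Cdc42ep4 (0.82), Pcsk1n (0.82) and Ly6e (0.80). Slc16a1 encodes the monocarboxylate transporter MCT1, which carries lactate and is also a gene of the barrier transporter list below. Pcsk1n and Prrt1 had mean levels of 112 and 55.5 FPKM, above that of any member. Which cells made these 6 genes was not tested, and a high r does not mark a gene as endothelial.

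Around the members, 130 genes in 11 lists of endothelial and barrier function were examined, of which 113 were tested in the mean of both systems. Against sham, 1 of them was called lower and 0 higher, 0.885% of those tested beside 0.967% of all genes. Of the 113, 88 were below 0, which is 77.9% beside 61.6% of all genes. Against the contralateral side, 1 was called lower and 1 higher, 1.77% beside 1.73% of all genes. There 61 were below 0, 54% beside 60%. The shares called were thus near those of all genes. The median over these genes was -0.08 against sham, beside -0.02 over all genes. Against the contralateral side it was -0.0042, also beside -0.02. For the contralateral side against sham, 89 of the 113 were below 0 (78.8%), with a median of -0.07 beside -0.00095 over all genes. Values below sham were thus not limited to the SD side. Both sides come from the same mice and are set against the same sham libraries, so these counts are not independent. Within either system 0 were called in any comparison. The lists, like the members, were chosen with earlier results of these data known.

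The gene that fell was Gja4 (ENSMUSG00000050234.7, chromosome 4, 127311421 to 127314039, minus strand), which encodes connexin 37, a gap junction protein of arterial endothelium. On the SD side it had 0.897, 0.754 and 0.708 FPKM with KCl and 0.696, 1.02 and 0.977 with light. The contralateral sides had 1.34, 1.15 and 1.37 with KCl and 1.25, 1.36 and 1.78 with light. NaCl sham had 1.29, 1.66 and 1.17, and optogenetic sham 1.67, 1.28 and 1.58. All 6 SD libraries lay below all other libraries of their system, an arrangement of 46 of 12930 genes (0.356%), while 0.681% had the opposite one. The mean log2 fold change was -0.53 (SE 0.09, adjusted p = 0.00746) against sham and -0.48 (SE 0.09, adjusted p = 0.0116) against the contralateral side. The systems gave nearly equal values against sham, -0.53 (SE 0.12, adjusted p = 0.301 in limma) with KCl and -0.53 (SE 0.14, adjusted p = 0.312) with light. Gja4 thus passed the threshold in neither system alone. The difference between the systems was -0.01 (SE 0.19). Gja4 levels are low, as are those of Sox18 and Vwf, and the counting error behind them is unknown. The contralateral side and sham differed by -0.05 (SE 0.09, adjusted p = 0.986). Gja4 stayed called in both mean comparisons under every alternative that could test it.

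The window before the Gja4 start is shown because Gja4 fell in both comparisons of the SD side, with the ETS core in capitals as above.
Gja4, chr4:127314040-127314289, minus strand: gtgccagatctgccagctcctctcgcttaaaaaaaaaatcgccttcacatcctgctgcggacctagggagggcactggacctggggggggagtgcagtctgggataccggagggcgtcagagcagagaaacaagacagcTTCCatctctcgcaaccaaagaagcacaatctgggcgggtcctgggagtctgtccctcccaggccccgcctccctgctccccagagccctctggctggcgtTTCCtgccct
It held 2 matches to the ETS core and 1 to the SOX letters.

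**Figure D5:**
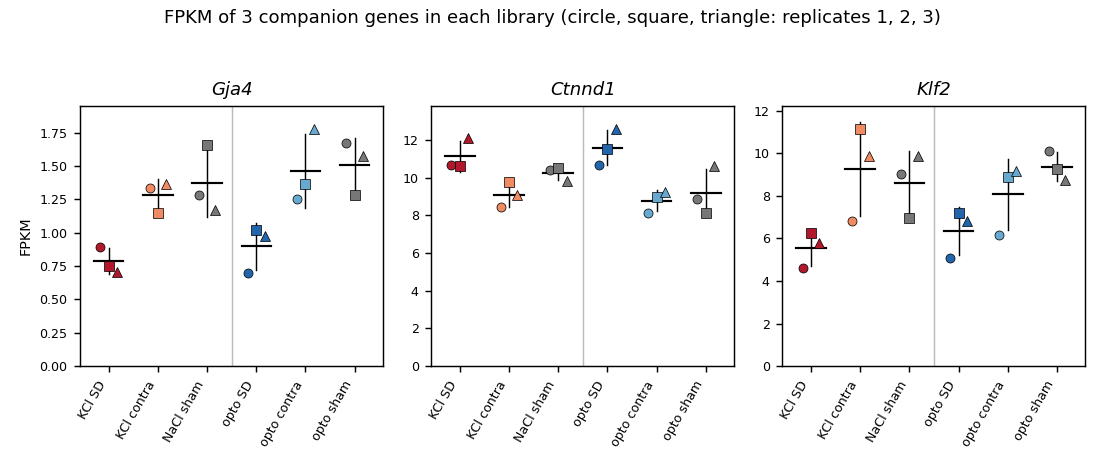
FPKM (y axis, from 0) of 3 genes of the companion lists in every library, by group (x axis), with the mean of 3 as a horizontal bar and the standard deviation as a vertical bar. The 6 SD libraries of Gja4 hold 0.696 to 1.02 FPKM and the 12 others 1.15 to 1.78.

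Of 13 junction genes tested beside the members, Ctnnd1 was the one called. It encodes p120-catenin, which holds cadherins at the membrane and is also made outside endothelium. It rose against the contralateral side, from 9.10 ± 0.66 to 11.1 ± 0.84 FPKM with KCl and from 8.77 ± 0.56 to 11.6 ± 0.94 with light (mean ± standard deviation, n = 3). The mean log2 fold change was 0.33 (SE 0.06, adjusted p = 0.0122). Against sham it was 0.22 (SE 0.06, adjusted p = 0.155) and did not pass the threshold. Sham levels of Ctnnd1 were 10.2 ± 0.37 FPKM with NaCl and 9.20 ± 1.28 in the optogenetic system. The contralateral mean was thus below the sham mean in each system. Without both sides of KCl mouse 1 the value against the contralateral side was 0.32 and no longer passed (adjusted p = 0.0598). A protein-coding gene, Gm28635, overlaps Ctnnd1 on the same strand, so its value is uncertain where fragments were split.

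Of 6 flow-responsive genes 0 were called. Klf2, a transcription factor that endothelium makes under laminar flow, had the lowest p, at -0.56 (SE 0.13, adjusted p = 0.0654) against sham and -0.50 (SE 0.13, adjusted p = 0.0867) against the contralateral side. Its SD libraries held 4.60 to 6.25 FPKM with KCl, below NaCl sham at 6.97 to 9.87. With light they held 5.08 to 7.18, below optogenetic sham at 8.76 to 10.1. The contralateral side had 6.82 to 11.1 FPKM of Klf2 with KCl, above the SD side. With light it had 6.16 to 9.17, which overlapped the SD side. Of all genes, 8.54% lay below sham without overlap with KCl and 8.51% with light. Klf4 of the same list went the other way in the mean of both systems. It was at 0.17 against sham and 0.22 against the contralateral side. Nostrin, Nos3, Thbd and Cyp1b1 were at -0.26, -0.16, -0.04 and -0.03 against sham. Of 7 activation and adhesion genes tested 0 were called, and Edn1, the vasoconstrictor endothelin 1, was at -0.51 (SE 0.15, adjusted p = 0.155) against sham.

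Of 17 barrier transporters 0 were called. Slc16a1 was at -0.20 (SE 0.05, adjusted p = 0.0856) against sham and Slc22a8, an organic anion transporter, at -0.25 (adjusted p = 0.336). Of 6 caveolar and fenestral genes 0 were called, and Cavin2, a coat protein of caveolae, was at -0.33 (SE 0.09, adjusted p = 0.120) against sham. By system Cavin2 was at -0.13 with KCl and -0.53 with light. The contralateral side against sham stood at 0.11 with KCl and -0.44 with light. Of 5 ABC efflux pumps tested beside Abcb1a 0 were called, with a median of 0.01 against sham.

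Of 19 further endothelial identity genes 0 were called, and 17 were below 0 against sham, with a median of -0.11. Eng, a TGF-beta co-receptor, was at -0.22 (adjusted p = 0.243) and Robo4, a guidance receptor of endothelium, at -0.23 (adjusted p = 0.251). Of 17 genes of the Wnt and beta-catenin programme, which induces the barrier in development, 0 were called. The Wnt targets Apcdd1 and Lef1 were at -0.30 (adjusted p = 0.252) and -0.29 (adjusted p = 0.266). Of 11 VEGF and angiopoietin genes tested 0 were called, with Vegfb at -0.13 against sham and Vegfa at 0.23 (adjusted p = 0.291) against the contralateral side. Of 11 basement membrane genes 0 were called, and 11 were below 0 against sham, with Col4a1 at -0.22 (adjusted p = 0.401).

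Markers of other cells were read beside these values. Red blood cell markers, which follow the blood left in the vessels, were all below 0 against sham, 5 of 5 in the mean of both systems, with a median of -0.64 and 0 called. Their sum was 204 to 324 FPKM in optogenetic SD libraries, 253 to 399 on the contralateral side and 414 to 1031 in sham. In the KCl system the ranges of this sum overlapped, at 328 to 565, 397 to 578 and 368 to 634. Pericyte markers were below 0 in 8 of 10 against sham, with a median of -0.08, and their sum was 66.9 to 73.9 FPKM on the KCl SD side and 74.6 to 82.8 in NaCl sham. In the optogenetic system the pericyte sums overlapped, from 66.1 to 73.5 over all groups. Smooth muscle markers were below 0 in 4 of 4 tested and meningeal fibroblast markers in 6 of 7. The choroid plexus sum ran from 4.12 to 1141 FPKM and held a library under 30 FPKM in 5 of the 6 groups. The sum of 6 neuron markers was 733 to 909 FPKM over all libraries, with 6 of 6 above 0 against sham, a median of 0.04 and 0 called. Markers of the other glial and immune cells were below 0 against sham in the mean of both systems as well, with 0 called. They were 6 of 6 astrocyte markers (median -0.07), 6 of 6 microglia markers (median -0.07) and 6 of 6 oligodendrocyte markers (median -0.05), so values below 0 were not limited to vascular lists. The summed astrocyte level was 366 to 379 FPKM on the optogenetic SD side and 385 to 424 in its sham, while the KCl ranges overlapped. On the optogenetic contralateral side it was 322 to 374, also below sham. The summed microglia and oligodendrocyte levels overlapped between SD and sham in each system. The part of any of these cells in the values of Vwf, Sox18 and Gja4 was not tested. Of the astrocyte markers, Gja1 fell in the optogenetic SD side against sham by 0.50 on the log2 scale (SE 0.08, adjusted p = 0.0319), a call lost in 9 of 16 alternatives. With KCl it was at 0.11 (SE 0.13, adjusted p = 0.892), and the difference between the systems, 0.61, did not pass limma's test (adjusted p = 0.822). The other 5 astrocyte markers were not called in any comparison.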

How the data were processed

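RNA from the cortex of 12 mice was sequenced in 18 libraries, after poly(A) enrichment with a stranded kit, per the labels' protocols. The authors deposited FPKM values per library, computed with StringTie on build GRCm38 per the submitters' processing notes, for protein-coding genes in 6 tables. The group columns headed FPKM hold the authors' mean log2(FPKM + 1), checked within 1e-06. Fold changes (log2 and ratio), p-values and q-values that the authors deposited beside them were not used here. A line without data, 1 per file, was left out. Depth is unknown, and FPKM sums per library ran from 217205 to 237318.

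Genes averaging 0.5 FPKM or more were fitted as log2(FPKM + 0.5) with limma 3.58.1 (R 4.3.3) with a mean-dependent prior variance, on 9 libraries per system, or on all 18 for the mean of both systems and the difference between them. P-values were adjusted by Benjamini-Hochberg over all genes tested. The fit was tested on simulated data. Errors written SE are standard errors from limma. By the titles, libraries of the left and right side with one number come from 1 mouse, while sham mice share only the number. The deviations of the sides of a mouse from their group means correlated at -0.089 to 0.137 over genes. Single members could differ from this, as Cldn5, Tek and Mfsd2a went the same way on both sides of KCl mouse 1. The libraries of a group come from separate mice by number, 3 per group. Alternatives were pseudocounts of 0.1 and 1, no filter or a mean of 2 FPKM, median-of-ratios scaling, a constant prior variance, a replicate block and leaving out each library. For SD against the contralateral side within a system, the block was also fitted on the stimulated mice alone. There Sox18 stood at an adjusted p of 0.461 with KCl and 0.206 with light in limma. Leaving out both sides of KCl mouse 1, and all alternatives for genes other than the members, were added after seeing the data.

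The members and lists were chosen with earlier results of these data known. Named from a list are called genes, up to 3 per comparison, or otherwise up to 2 with the smallest p. The likest genes are those with the highest correlation to the members' mean among genes with at least 1 FPKM. Gene IDs and coordinates are those of the deposited tables. They equal GENCODE M21 for all members but Cldn5. Promoters came from RefSeq. Values were read in Python 3.11.15 with pandas 2.3.3.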

Additional observations from a re-analysis of the deposited data

How the results depend on the processing

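No member was called under any alternative in any of the 12 comparisons, except Sox18 for SD against the contralateral side in the mean of both systems. There the count of members called was 1 without KCl contralateral right replicate 2, and 0 to 1 over the libraries left out. The replicate block changed no call of a member, and with it Sox18 in that comparison stood at an adjusted p of 0.108. Gja4 kept its calls, with adjusted p up to 0.0293 against sham and up to 0.0446 against the contralateral side. With the replicate block the calls of the contralateral side against sham over all genes went from 1 to 0 in each system. Klf2 was newly called in 3 alternatives against sham and in 2 against the contralateral side, Cavin2 and Ctnnd1 in 1 each against sham, each on leaving out a library. The size of the Sox18 fold change depended on the pseudocount, with -1.21 at 0.1 and -0.52 at 1 against the contralateral side. Of 69 fold changes recomputed, 11 changed sign under some alternative, and none of the 11 was called in any of them. Over the libraries left out, the log2 fold change ran from -0.12 to 0.11 for Cldn5 in optogenetic SD against sham. For SD against sham it ran from -0.095 to 0.091 for Mfsd2a in the mean of both systems, and from -0.12 to 0.10 for Gja4 in the difference between the systems. For SD against the contralateral side it ran from -0.023 to 0.17 for Mfsd2a and from -0.039 to 0.0198 for Vwf in the mean, and from -0.093 to 0.095 for Gja4 in the difference. For the contralateral side against sham it ran from -0.065 to 0.21 for Sox18, from -0.11 to 0.0033 for Gja4 and from -0.14 to 0.0304 for Klf2 in the mean, and from -0.028 to 0.10 for Vwf in the difference. Median-of-ratios scaling gave 0.0095 for Vwf against the contralateral side in the mean. Excluding both sides of KCl mouse 1, an alternative chosen after seeing the data, gave -0.095 for Mfsd2a against sham and 0.018 for Vwf against the contralateral side in the mean, and 0.12 for Sox18 and -0.021 for Gja4 in the difference there. For the contralateral side against sham it gave -0.065 for Sox18 and 0.0304 for Klf2 in the mean, and -0.012 for Vwf in the difference. The causes were not tested. Over all genes, the same exclusion took the calls from 9 to 4 for KCl SD against sham, from 45 to 12 against the contralateral side, from 1 to 4 for the contralateral side against sham, and from 224 to 147 for SD against the contralateral side in the mean. A constant prior variance gave 1 call in place of the 9. The files used give no depth, so counting error could not be set beside any value, and leaving out a library leaves its group with 2.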
